A study of Mus musculus with 6 samples.

Results

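The 43 genes described here encode the proteins that license replication origins and run the replication fork: the origin recognition complex, the loaders of the replicative helicase, the helicase itself, its activators, the replicative polymerases with primase, the sliding clamp and its loader, the enzymes that join Okazaki fragments, and the single-strand binding protein RPA. They were chosen by name, with earlier results of these data known, and all 43 were found among the 23038 genes listed for each library. The libraries were made from mouse primary oligodendrocyte precursor cells (mOPCs), the dividing cells that give rise to myelin-forming oligodendrocytes. The cells came from mouse embryos at embryonic day 14.5 by immunopanning, in which cells are caught on antibody-coated dishes. One group of 3 cultures received control siRNA (siNC), the other group of 3 received siRNA against Qk (siQk), and RNA was collected 72 h after transfection. Qk encodes the Quaking RNA-binding proteins, known for their part in oligodendrocyte differentiation. The labels call the cultures of a group biological replicates. The siQk group used 3 different siRNAs, and the sources used here do not state which library received which, so an effect of 1 siRNA cannot be told apart from the spread between cultures.

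Origins are licensed in the G1 phase of the cell cycle. The origin recognition complex, Cdc6 and Cdt1 load the ring of Mcm2 to Mcm7 onto DNA, and geminin (gene symbol Gmnn) blocks Cdt1 once S phase has begun. The kinase Cdc7 with its activator Dbf4, together with Cdc45 and the GINS complex, then turns the loaded ring into a working helicase. Behind the helicase, polymerase alpha and primase lay down primers, polymerases epsilon and delta extend them with the clamp PCNA, and Fen1 and Lig1 process and seal the lagging strand. Many of these genes are known targets of E2F transcription factors and are transcribed mainly in cycling cells.

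Levels are given as RPKM, which are reads scaled by exon length and by library total and so can be compared between genes, and always in the order of replicates 1, 2 and 3. Changes are fitted log2 fold changes of siQk over siNC from edgeR's quasi-likelihood test with Benjamini-Hochberg adjustment (FDR) over the 12505 genes tested. A gene was called when P was under 0.01 and FDR under 0.1. Qk itself was at 209, 206 and 163 RPKM with siNC and 51.3, 76.6 and 36.2 RPKM after siQk (log2 fold change -1.98, SE 0.28, FDR = 0.00311). Library totals ran from 58166490 to 141045937 tags, with siNC replicate 1 the smallest. Rn45s, a ribosomal RNA gene, took 3.11% of the tags there and 0.169% to 0.389% elsewhere. Members had 102 to 21624 tags per library, fewest for Orc1 in siNC replicate 1.

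Among the members, 15 of 43 were called higher in siQk and none was called lower. The 15 make up 34.9% of the members, against 13.8% of all tested genes called higher, 17.2% called lower and 31% called in either direction. No member had a log2 fold change below 0 with an unadjusted P under 0.05, and 24 had one above 0. DESeq2 and edgeR's likelihood ratio test also called no member lower. The fitted log2 fold change was above 0 in 40 members, the median being 0.53 among members and 0.01 over all tested genes. Values ran from -0.14 for Orc5 to 1.39 for Pole. In 32 members every siQk library had a higher RPKM than every siNC library, which was so for 41.9% of all tested genes. After division by the TMM factors, edgeR's correction for composition, this held for 24 members and for 27.8% of tested genes. DESeq2, run on 19223 genes without the filter on low counts, called 23 members and 2490 of all genes higher. The quasi-likelihood test without that filter called 20 members and 2112 of 19223 genes higher. Scaling by library size alone called 24 members and 2989 of 12505 tested genes higher, and also raised the median of all tested genes to 0.16.

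**Figure D1:**
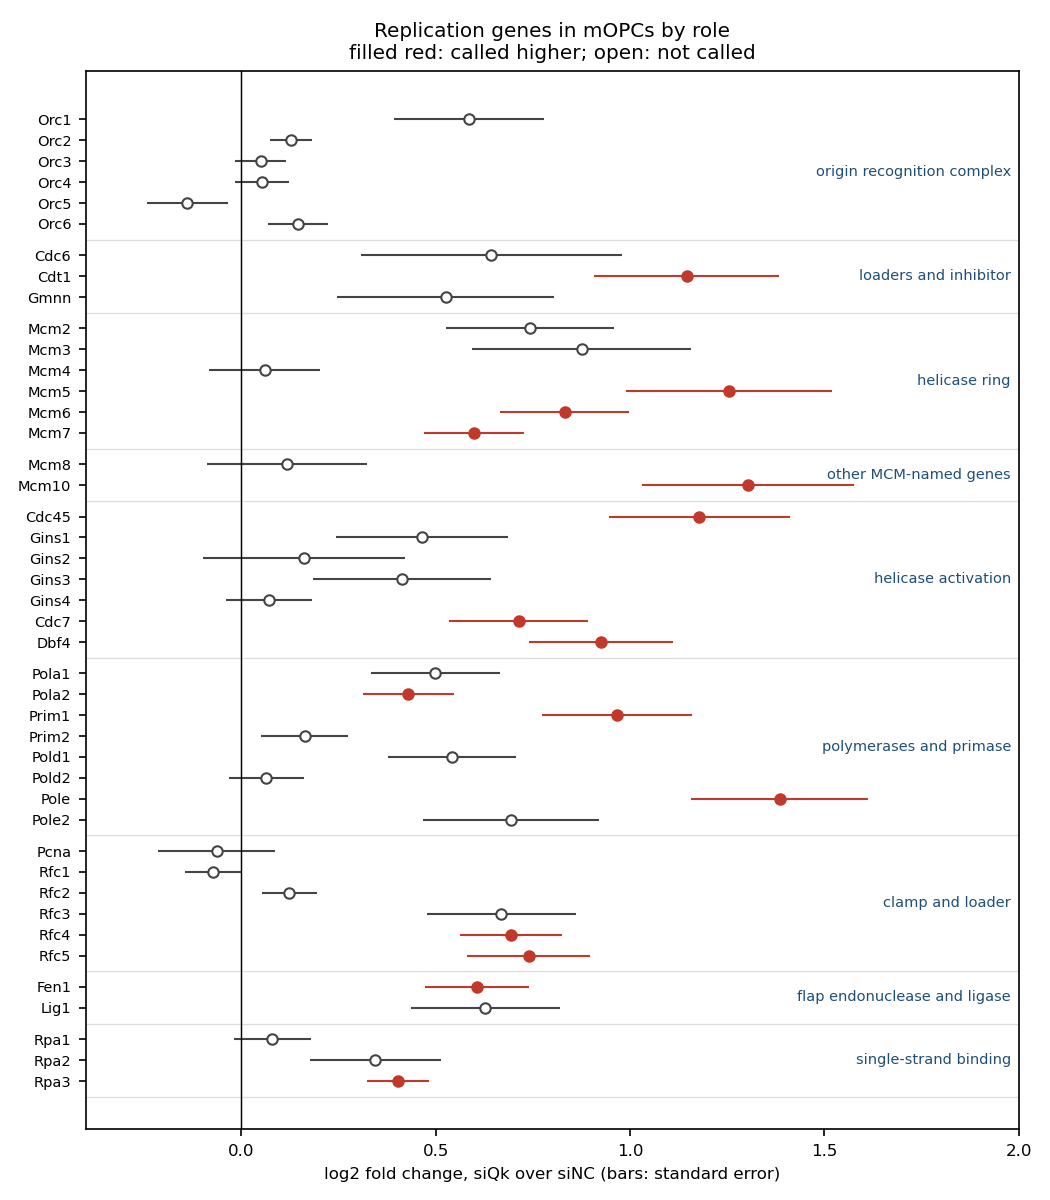
Fitted log2 fold change of siQk over siNC for the 43 members, grouped by role, with bars of 1 standard error; filled points are the 15 genes called higher. The origin recognition genes lie near 0 apart from Orc1, while Pole, Mcm10, Mcm5, Cdc45 and Cdt1 lie above 1.

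None of the 6 origin recognition genes was called, and their median log2 fold change was 0.09. These subunits mark origins and serve as the platform for helicase loading. Orc1, the subunit whose protein level is cell cycle regulated in mammals, had the largest fitted change of the 6. It was at 0.582, 0.503 and 0.674 RPKM in siNC against 1.16, 0.939 and 0.827 in siQk (log2 fold change 0.59, SE 0.19, FDR = 0.0515, P above the limit). Its groups did not overlap, and Orc1 was also the least covered of the members. Orc3 was closest to 0, at 18.6, 20.6 and 21.6 RPKM in siNC against 24.3, 21.8 and 23.6 in siQk (log2 fold change 0.05, SE 0.07, FDR = 0.578). Orc2 to Orc6 sat between 14.1 and 33.6 RPKM on average in siNC, well above Orc1. Orc5 had a fitted change of -0.14 and was called lower (-0.25) only when siNC replicate 2 was left out.

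Of the loaders and their inhibitor, only Cdt1 was called. Cdt1, which brings the Mcm ring to the origin, was at 0.951, 0.810 and 0.669 RPKM in siNC against 2.55, 1.82 and 1.60 in siQk, so the groups did not overlap (log2 fold change 1.15, SE 0.24, FDR = 0.0117). Geminin, its inhibitor, was at 6.64, 5.34 and 4.07 RPKM in siNC against 11.1, 8.65 and 6.04 in siQk. The lowest siQk library of Gmnn fell below the highest siNC library, and the gene was not called (log2 fold change 0.53, SE 0.28, FDR = 0.177). Cdc6, an ATPase that acts with Cdt1, averaged 0.476 ± 0.095 RPKM in siNC against 0.826 ± 0.334 in siQk (SD, n = 3) and was not called (FDR = 0.170).

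The ratio of Cdt1 to Gmnn RPKM within a library does not depend on how libraries are scaled. It was 0.143, 0.152 and 0.164 in siNC and 0.231, 0.210 and 0.264 in siQk. Every siQk library lay above every siNC library, with means of 0.153 ± 0.011 and 0.235 ± 0.027 (SD, n = 3). The log2 ratio was higher by 0.61 (two-sided exact permutation p = 0.1, the smallest value that 3 against 3 libraries allow).

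The 6 genes of the Mcm2 to Mcm7 ring code for 1 subunit each of the hexamer that unwinds DNA ahead of the fork. Mcm5, Mcm6 and Mcm7 were called higher. Mcm5 had the largest change of the ring, from 5.19, 3.41 and 3.68 RPKM in siNC to 14.5, 10.03 and 8.20 RPKM in siQk (log2 fold change 1.26, SE 0.26, FDR = 0.0123). Without siNC replicate 2 the change was 1.13 and the call was lost, with P just over the limit. Mcm6 went from 7.63, 6.12 and 5.91 RPKM to 15.2, 12.7 and 11.1 RPKM (log2 fold change 0.83, SE 0.17, FDR = 0.0102). Mcm7, the most abundant ring transcript, went from 24.4, 21.8 and 25.7 RPKM to 46.4, 41.3 and 33.5 RPKM (log2 fold change 0.60, SE 0.13, FDR = 0.0129). For these genes all siQk libraries were above all siNC libraries.

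Mcm2 and Mcm3 had larger fitted changes than Mcm7 but wider spread, and neither passed the P limit. Both were called when siNC replicate 1 was left out (changes of 0.97 for Mcm2 and 1.13 for Mcm3), and over the 15 alternatives other than the stricter cutoff Mcm2 was called under 9 and Mcm3 under 6. Mcm2 was at 7.01, 4.93 and 5.01 RPKM in siNC against 13.05, 9.80 and 8.79 in siQk (log2 fold change 0.74, SE 0.22, FDR = 0.0354). Mcm3 was at 4.54, 2.80 and 3.40 RPKM in siNC against 9.94, 6.57 and 5.44 in siQk (log2 fold change 0.88, SE 0.28, FDR = 0.0482). Mcm4 was closest to 0 in the ring, at 12.9, 11.2 and 11.4 RPKM in siNC against 16.3, 13.0 and 11.9 in siQk. Its groups overlapped and its fitted change was 0.06 (SE 0.14, FDR = 0.758).

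**Figure D2:**
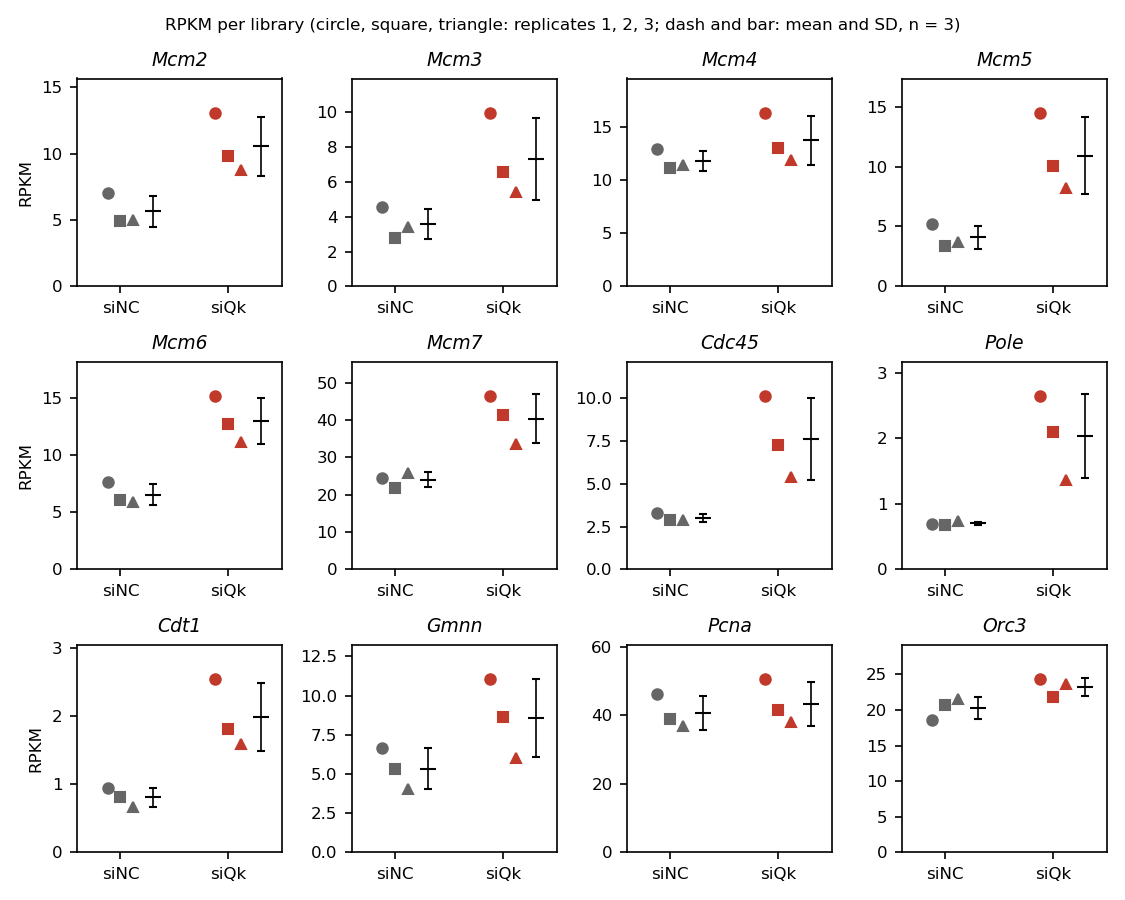
RPKM of 12 members in each library, each panel with its own axis from 0; points are single libraries and bars the mean with SD (n = 3). Mcm2, Mcm3, Mcm5, Mcm6, Mcm7, Cdc45, Pole and Cdt1 separate the groups, Mcm4, Gmnn and Pcna overlap, and siQk replicate 1 is the highest point in every panel.

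Summed over the ring, the level was 61.7, 50.2 and 55.2 RPKM in siNC against 115, 93.4 and 79.0 in siQk, without overlap (fold of the means 1.72, two-sided exact permutation p = 0.1, the smallest possible). These sums are without TMM scaling, unlike the fitted changes. The TMM factors were 0.899 to 0.987 in siNC and 1.04 to 1.07 in siQk. The difference of the means, 40.2 RPKM, was therefore smaller after TMM scaling. Shares of 3 subunits in the sum did not overlap between the groups. Mcm4 gave 21.0%, 22.2% and 20.7% of it in siNC and 14.1%, 13.9% and 15.1% in siQk. Mcm5 gave 8.40%, 6.79% and 6.68% in siNC and 12.5%, 10.7% and 10.4% in siQk. Mcm6 went in share from 11.8% ± 0.903 to 13.6% ± 0.461 (SD, n = 3). For each of these 3 shares the exact permutation p was 0.1, or 0.2 after Benjamini-Hochberg adjustment over the 6 shares. The shares of Mcm2, Mcm3 and Mcm7 overlapped between the groups, and Mcm7 made up 43.2% ± 3.52 of the sum in siNC and 42.3% ± 2.01 in siQk.

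**Figure D3:**
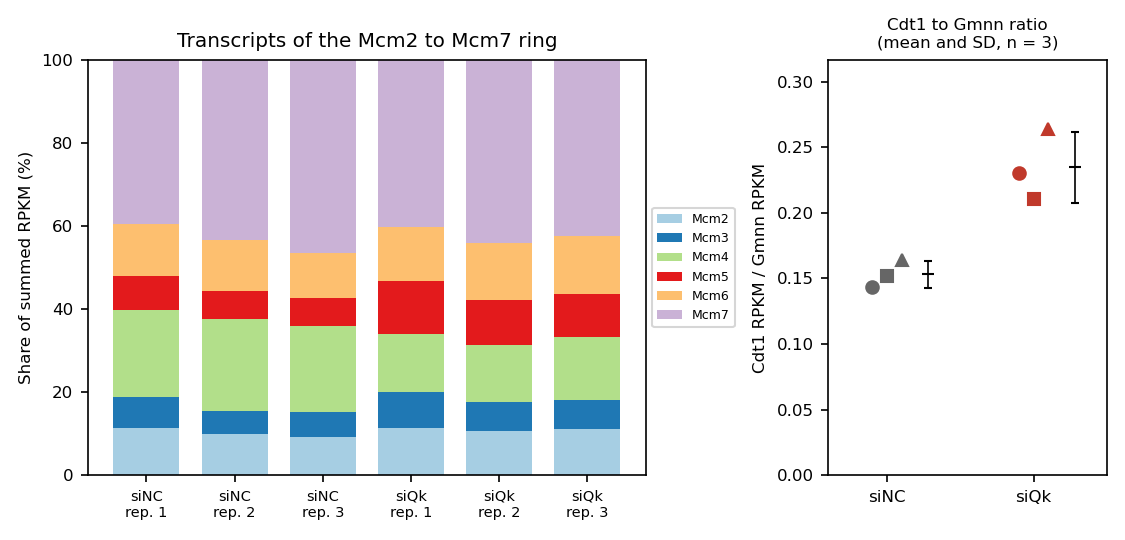
Left, share of each of Mcm2 to Mcm7 in their summed RPKM (%), one bar per library; right, the Cdt1 to Gmnn RPKM ratio per library with mean and SD (n = 3). The Mcm4 band narrows from 20.7% or more in siNC to 15.1% or less in siQk, and the ratio lies at 0.164 or below in siNC and 0.210 or above in siQk.

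Of the ring genes, Mcm3, Mcm5, Mcm6 and Mcm7 had an E2F-type word in a promoter window, Mcm2 had none and Mcm4 had no window in the table. The windows run from 250 bases before to 50 after the annotated start, are taken from RefSeq (GRCm38.p6) and are printed in the direction of transcription. Capitals mark matches to TTTCCCGC, TTTGGCGC, TTTGCCGC or TTTCGCGC on either strand. The first 3 windows are the called members with a match and the deepest coverage, and Orc3 is shown as a member with a match and a change near 0.
Mcm5, chr8:75109259-75109558, plus strand: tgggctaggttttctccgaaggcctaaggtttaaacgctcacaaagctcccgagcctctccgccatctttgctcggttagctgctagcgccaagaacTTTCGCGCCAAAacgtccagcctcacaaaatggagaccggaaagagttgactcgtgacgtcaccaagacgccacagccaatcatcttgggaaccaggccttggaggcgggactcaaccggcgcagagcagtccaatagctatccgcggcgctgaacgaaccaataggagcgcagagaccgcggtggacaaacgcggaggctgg
Mcm6, chr1:128359656-128359955, minus strand: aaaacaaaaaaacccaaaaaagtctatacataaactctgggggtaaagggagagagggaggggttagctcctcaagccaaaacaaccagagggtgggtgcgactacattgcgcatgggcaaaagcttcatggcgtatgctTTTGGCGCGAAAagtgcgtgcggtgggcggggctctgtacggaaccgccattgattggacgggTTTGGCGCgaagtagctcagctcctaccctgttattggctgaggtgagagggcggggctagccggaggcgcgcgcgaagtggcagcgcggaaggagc
Mcm7, chr5:138171834-138172133, minus strand: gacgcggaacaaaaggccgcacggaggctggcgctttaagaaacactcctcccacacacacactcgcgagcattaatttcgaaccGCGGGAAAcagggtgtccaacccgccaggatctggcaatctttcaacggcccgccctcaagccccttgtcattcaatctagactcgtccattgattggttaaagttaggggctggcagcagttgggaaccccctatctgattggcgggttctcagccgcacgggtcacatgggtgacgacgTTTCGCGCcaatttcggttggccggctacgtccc
Orc3, chr4:34614893-34615192, minus strand: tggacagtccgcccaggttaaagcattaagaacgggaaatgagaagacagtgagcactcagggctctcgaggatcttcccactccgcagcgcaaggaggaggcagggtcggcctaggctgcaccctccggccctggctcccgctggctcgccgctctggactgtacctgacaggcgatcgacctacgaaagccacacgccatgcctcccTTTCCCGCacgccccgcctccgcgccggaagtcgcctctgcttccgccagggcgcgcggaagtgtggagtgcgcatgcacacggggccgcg
In Mcm5 a pair of overlapping matches on opposite strands began at bases -153 and -149, counted from the start. Mcm6 held an overlapping pair beginning at bases -110 and -106 and a further match at base -47. In Mcm7 the matches began at bases -165 and 17, and in Orc3 the match began at base -41. A second Mcm7 window in the table, for another annotated start (chr5:138171217-138171516), held none of the words and is not printed.

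Across the members, 35 had a window in the table and 15 of these (42.9%) held at least 1 of the 4 words, against 4.84% of the 9975 tested genes with a window and 2.26% of all 32851 windows. A word was found in 4 of 14 called members (28.6%), which were Cdt1, Mcm5, Mcm6 and Mcm7, and in 11 of 21 members that were not called (52.4%), a difference that was not tested. The CCAAT word, bound by NF-Y, was in 62.9% of members and 43.6% of tested genes, and TTTGAA, the core of the cell cycle homology region, in 20% and 13.8%. A match describes letters in the window and not a bound site. No window was given for Gmnn, Mcm4, Gins1, Gins2, Gins4, Prim2, Pole and Rfc2.

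Of the other genes named Mcm, Mcm10, which helps to start the activated helicase, was called higher and Mcm8, which acts in recombination, was not. Mcm10 was at 0.665, 0.578 and 0.513 RPKM in siNC against 2.21, 1.49 and 1.11 in siQk, with no overlap (log2 fold change 1.30, SE 0.27, FDR = 0.0118). Mcm8 was at 1.88, 1.77 and 1.79 RPKM in siNC against 2.78, 2.19 and 1.59 in siQk. Its siQk libraries lay on both sides of the siNC values (log2 fold change 0.12, SE 0.21, FDR = 0.672).

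Among the genes of helicase activation, Cdc45, Cdc7 and Dbf4 were called higher and none of the 4 GINS genes was. Cdc45, which binds the ring to form the active helicase, was at 3.28, 2.87 and 2.91 RPKM in siNC against 10.1, 7.29 and 5.37 in siQk. The lowest siQk library lay above every siNC library (log2 fold change 1.18, SE 0.23, FDR = 0.00982). The kinase subunit Cdc7 averaged 2.96 ± 0.352 RPKM in siNC against 5.40 ± 1.02 in siQk (SD, n = 3) and its activator Dbf4 at 4.21 ± 0.394 and 8.90 ± 2.06 RPKM. Their log2 fold changes were 0.71 (FDR = 0.0221) and 0.93 (FDR = 0.0101). Leaving out siNC replicate 2 or 3 or siQk replicate 1 or 2 ended the Cdc7 call, with changes of 0.69, 0.61, 0.62 and 0.66. Gins1 to Gins3 had fitted changes of 0.47, 0.16 and 0.41. Gins4 was the most abundant of the GINS genes and changed least, from 27.3, 23.0 and 25.3 RPKM to 32.1, 29.5 and 26.9 RPKM (log2 fold change 0.07, SE 0.11, FDR = 0.633), with overlap between the groups.

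For the polymerases and primase, 3 of 8 genes were called higher. Pole, the catalytic subunit of polymerase epsilon, had the largest change of all members. It was at 0.697, 0.679 and 0.733 RPKM in siNC against 2.65, 2.11 and 1.37 in siQk (log2 fold change 1.39, SE 0.23, FDR = 0.00533). The siNC libraries were tightly grouped and the siQk libraries spread widely above them. Prim1, the catalytic subunit of primase, was at 9.30, 8.46 and 10.4 RPKM in siNC against 24.2, 22.4 and 14.5 in siQk (log2 fold change 0.97, SE 0.19, FDR = 0.0102). Its partner Prim2 had a fitted change of 0.16 (FDR = 0.290). The Prim1 to Prim2 RPKM ratio, looked at after both values were seen, was 1.05, 0.969 and 1.30 in siNC and 2.05, 2.09 and 1.55 in siQk. Pola2, the accessory subunit of polymerase alpha, was called with a small change (log2 fold change 0.43, SE 0.12, FDR = 0.0289), and leaving out siNC replicate 2 or 3 or siQk replicate 1 or 2 ended the call, at changes of 0.38, 0.42, 0.36 and 0.40, as did thinning all libraries to the smallest (0.43).

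Pola1, Pold1 and Pole2 had fitted changes of 0.50, 0.54 and 0.69 with FDR of 0.0527, 0.0399 and 0.0508, but P above the limit, and were among 8 members that met the FDR limit alone. Pola1 (0.63) and Pold1 (0.65) were called without siQk replicate 3, and Pole2 (0.93) without siNC replicate 1. Pold2, an accessory subunit of polymerase delta, was closest to 0 in this role. It was at 18.9, 16.4 and 19.7 RPKM in siNC against 21.5, 22.6 and 19.9 in siQk, separated by a narrow margin before scaling (log2 fold change 0.06, SE 0.10, FDR = 0.621).

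For the clamp and its loader, 2 of 6 genes were called higher. Pcna, the sliding clamp and a widely used proliferation marker, was the most abundant member in siNC. It was at 46.2, 38.8 and 36.9 RPKM in siNC against 50.5, 41.6 and 38.0 in siQk. The groups overlapped almost fully, and the fitted log2 fold change was -0.06 (SE 0.15, FDR = 0.757). Its sign turned with library size scaling (0.09), without siNC replicate 1 (0.08) and without siQk replicate 3 (0.02). The loader subunits Rfc4 and Rfc5 were called higher. Rfc4 was at 8.02, 8.17 and 8.17 RPKM in siNC against 17.2, 14.2 and 12.4 in siQk (log2 fold change 0.69, SE 0.13, FDR = 0.00851). Rfc5 was at 4.74, 4.31 and 4.28 RPKM in siNC against 9.71, 8.41 and 6.63 in siQk (log2 fold change 0.74, SE 0.16, FDR = 0.0129), and without siNC replicate 2 the change was 0.71 and the call was lost. Rfc3 lay just outside the P limit with a change of 0.67 (FDR = 0.0337) and was called without siQk replicate 3 (0.85). Rfc1, the large subunit, and Rfc2 had fitted changes of -0.07 and 0.12.

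Fen1, the flap endonuclease, and Lig1, the ligase that seals nicks, had fitted changes of 0.61 and 0.63 and lay on either side of the limit. Fen1 was at 5.09, 4.97 and 4.24 RPKM in siNC against 8.89, 8.16 and 7.17 in siQk (SE 0.13, FDR = 0.0141). Without siQk replicate 1 or 2 the change was 0.53 or 0.61 and the call was lost. Lig1 was at 5.23, 4.16 and 4.03 RPKM in siNC against 9.23, 7.84 and 6.06 in siQk (SE 0.19, FDR = 0.0412). Its groups did not overlap before TMM scaling but did after it, unlike those of Fen1. Lig1 was called without siNC replicate 1 (0.80) or siQk replicate 3 (0.77). Of the 3 RPA subunits, which coat single-stranded DNA, only Rpa3 was called. Rpa3 was at 38.1, 37.2 and 39.1 RPKM in siNC against 56.1, 60.3 and 51.7 in siQk (log2 fold change 0.40, SE 0.08, FDR = 0.00986). Rpa1 was at 19.6, 19.5 and 20.2 RPKM in siNC against 25.7, 24.1 and 19.8 in siQk, with overlap (log2 fold change 0.08, SE 0.10, FDR = 0.552). Rpa2 had a fitted change of 0.34 and was not called.

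Some members share exon sequence with a gene on the opposite strand, and reads from both cannot be told apart where counting does not use strand. In GENCODE M21 this was 78.8% of the exonic bases of Fen1 (with Gm10143), 67.3% of Gins2 (with Gse1), 29.8% of Orc2 (with Nif3l1) and 15.1% of Rfc2 (with Lat2). For Rfc4 it was 12.7%, with Eif4a2, which stood at a mean of 111 RPKM over the libraries. Orc1 shared 10.8% and Rfc5 10.7%, in Rfc5 with Wsb2 at a mean of 49.3 RPKM. Every other member shared less, among them Orc6 with 6.93%, where the other gene was Vps35 at a mean of 146 RPKM. These shares refer to GENCODE M21 exons, which can differ from the exons that were counted. For Gins2 the 2758 shared bases exceed the counted exon length of 1038 bases, so part of the overlap lies outside the counted exons.

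Members that were abundant in siNC had smaller fitted changes. Across the 43 genes, the log2 mean siNC RPKM and the log2 fold change had a Spearman rho of -0.603 and a Pearson r of -0.652, against a rho of -0.167 across all tested genes. These are descriptions over genes of the same 6 libraries, and the siNC level enters both measures. Of the 14 members above 10 RPKM in siNC, Mcm7 and Rpa3 were called, and the median log2 fold change of the 14 was 0.07. Of the 29 at or below 10 RPKM, 13 were called, with a median of 0.67.

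**Figure D4:**
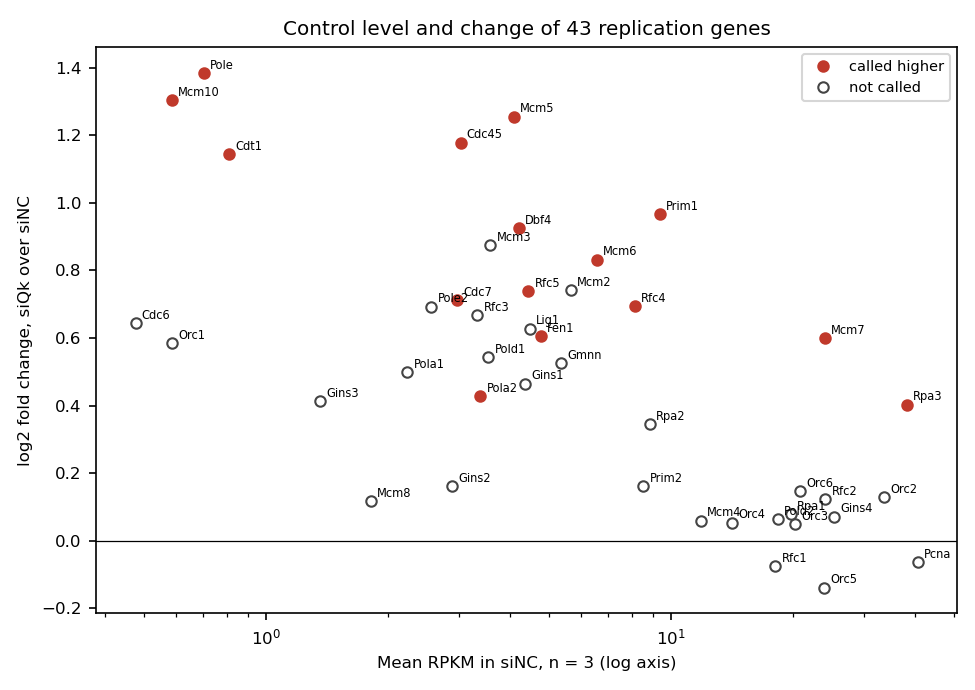
Fitted log2 fold change of each member against its mean siNC RPKM on a log axis; filled points are called higher. The 14 genes above 10 RPKM centre on 0.07 and the 29 at or below it on 0.67.

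The siQk libraries had the same highest and lowest replicate for most members. After TMM scaling, siQk replicate 1 was the highest siQk library for 40 of 43 members and replicate 3 the lowest for 41, against 28.5% and 37.7% of all tested genes. In siNC, replicate 1 was the highest library for 35 of 43 members, against 32.0% of all tested genes, while the lowest was replicate 2 for 20 members and replicate 3 for 22. Left without siQk replicate 1, the median log2 fold change of the members was 0.36. In that fit 12 members were called higher, beside 1008 of 12513 tested genes. Without siQk replicate 3 the median was 0.65, with 19 members and 1317 of 12516 tested genes called higher. Mki67, a gene of proliferating cells, followed the same order in siQk at 13.7, 12.2 and 7.14 RPKM. The order was not particular to the members. In a list of 25 mitosis genes, siQk replicate 1 was the highest siQk library for 25 and replicate 3 the lowest for 25. In siNC, replicate 1 was the highest for 22 of the 25.

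Other genes of replication and its control, 41 in number and not members, gave 14 called higher and 1 called lower among 40 tested. The 14 are 35% of those tested, against 13.8% of all tested genes called higher. Their list had a median log2 fold change of 0.32. Ticrr, needed to start helicase activation, had the largest change (1.69, FDR = 0.00284), from 0.433 ± 0.037 to 1.55 ± 0.443 RPKM (SD, n = 3). Top2a, the topoisomerase that untangles sister DNA, followed with 1.54, and the histone chaperone gene Asf1b with 1.41. The gene called lower was Mtbp, whose protein works with that of Ticrr, from 2.91 ± 0.077 to 2.47 ± 0.245 RPKM (log2 fold change -0.39, FDR = 0.0278). Its call held only when siQk replicate 1 was the library left out, with changes of -0.47 to -0.33 over the 6 such fits. The smallest called changes upward were those of Ssrp1 (0.28) and Dnmt1 (0.41), and that of Ssrp1 was kept only without siQk replicate 3 (0.22 to 0.33 over the 6 fits). All 25 genes of a mitosis list were called higher, against 13.8% of all tested genes. Their median was 1.70 and their range 1.11 to 2.05. In a list of 15 genes of S phase entry and proliferation, E2f2, E2f7, Ccna2 and Mki67 were called higher and Rb1 and Cdkn1a lower. Both lower calls ended with library size scaling. Leaving out a library ended that of Rb1 in every case but siNC replicate 1 (-0.65 to -0.40), and that of Cdkn1a in every case but siNC replicate 1 and siQk replicate 1 (-0.60 to -0.39). E2f1 was not called, with a fitted change of 0.07 (FDR = 0.824). These lists were chosen with earlier results of these data known, and differences between them were not tested.

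**Figure D5:**
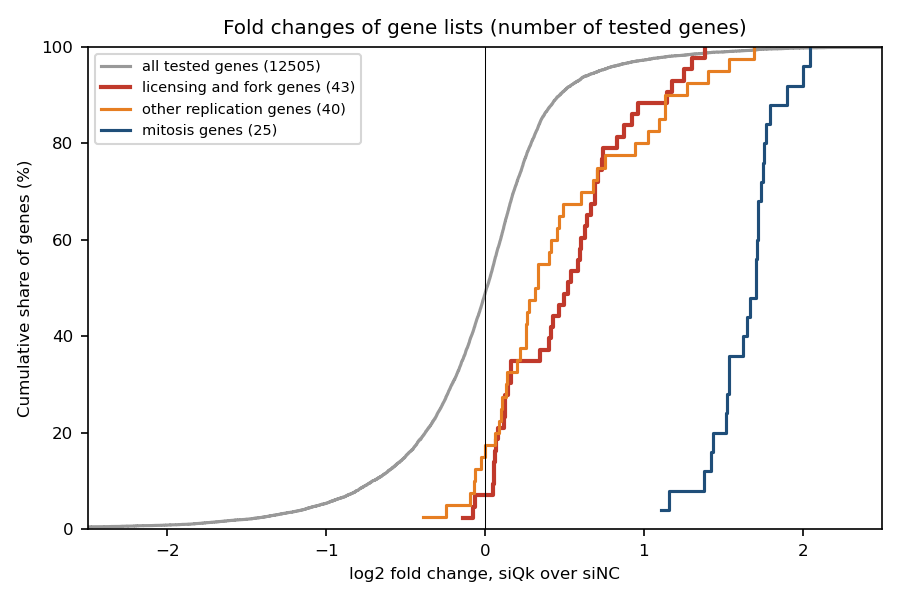
Cumulative share of genes (%) by fitted log2 fold change for the members, the other replication genes, the mitosis genes and all tested genes. The mitosis curve starts at 1.11, and the medians are 1.70 for mitosis genes, 0.53 for the members, 0.32 for the other replication genes and 0.01 for all tested genes. The lists were chosen with earlier results of these data known.

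In bulk RNA, more cycling cells and more RNA per cycling cell cannot be told apart, and cell type markers moved between the groups as well. Summed over 8 OPC markers, the level was 1023 to 1100 RPKM in siNC and 1217 to 1370 RPKM in siQk, with 3 markers called higher and 1 lower. Those higher were Cspg4, Olig1 (means of 268 and 402 RPKM) and Olig2 (132 and 236 RPKM). Lhfpl3 was lower (203 and 108 RPKM), and Pdgfra, Sox10, Ptprz1 and Gpr17 were not called. The 7 oligodendrocyte markers summed to 2473 to 4723 RPKM in siNC and 997 to 1640 RPKM in siQk, with 6 called lower. Of 6 astrocyte markers, summing to 97.1 to 156 RPKM and 30.7 to 34.0 RPKM, 4 were called lower, and Gja1 was under 0.1 RPKM in every library. The 6 neuron markers summed to 4.44 to 6.58 RPKM in siNC and 13.4 to 17.8 RPKM in siQk, with 2 called higher and Stmn2 under 0.1 RPKM throughout. The 6 microglia markers summed to 0.718 to 3.31 RPKM in siNC and 0.332 to 0.409 RPKM in siQk. Only P2ry12 of these was tested, and it was called lower (log2 fold change -3.16, FDR = 0.00886). Cx3cr1, Csf1r, Tmem119 and Ptprc were under 0.1 RPKM in every library. Aif1, not tested, went the other way, from a mean of 0.054 RPKM in siNC to 0.116 RPKM in siQk. The 7 fibroblast and vascular markers summed to at most 0.304 RPKM in any library. Within siQk, replicate 3, lowest for most members, had the highest oligodendrocyte sum. Within siNC the order was the other way, as replicate 1, highest for most members, had the highest oligodendrocyte sum (4723 RPKM). The part of these cell types in the members' changes was not tested.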

How the data were processed

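The authors sequenced poly-A RNA libraries (TruSeq RNA v2, a kit that does not mark strand) of 3 siNC and 3 siQk mOPC cultures, mapped reads with OLego (mm10) and counted per gene with Quantas. Versions, the gene annotation and the use of strand are not given in the sources used here. For each gene the deposited files hold an estimated count (tags, not whole for 23.1% to 26.1% of genes) and the RPKM that the authors computed from it and the exon length. RPKM recalculated from the tags matched the deposited RPKM.

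Estimated counts were rounded and fitted with edgeR 4.0.16 (R 4.3.3, limma 3.58.1) by the quasi-likelihood test, with TMM factors (0.899 to 1.07), group as the only term and genes of average logCPM over 0. The cutoffs follow the study's methods. The SE was taken as the absolute log2 value over the root of the F statistic. The fit was tested on simulated data. Ratios and ring shares were compared by exact permutation over libraries with SciPy 1.17.1. Depth was 58166490 to 141045937 tags. P-values measure the spread between these cultures. As a check for duplicated libraries, replicates were compared in pairs, and none agreed within counting noise (chi-square per degree of freedom at least 36.3), so each was counted as 1 sample.

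Members and lists were chosen with earlier results of these data known. Library values are given for Qk, for the whole ring, and in each role for the member with the largest change and the one nearest 0. Further members (Prim1, Rfc4, Cdc6 and those beside the limit) were named after their values were seen. Among other replication genes, the 3 largest and 3 smallest called changes are named. Alternatives were DESeq2 1.42.0, the edgeR likelihood ratio test, other scalings and filters, thinning, a replicate block, a stricter cutoff and leaving out each library. Promoter windows came from RefSeq tables, matched by gene ID.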

Additional observations from a re-analysis of the deposited data

How the results depend on the processing

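Of the 15 members called higher, 10 (Cdt1, Mcm6, Mcm7, Mcm10, Cdc45, Dbf4, Prim1, Pole, Rfc4 and Rpa3) were called under all 15 alternatives other than the stricter cutoff. The count of members called higher was 23 with DESeq2 (no filter on low counts, 19223 genes), 20 with edgeR without that filter, 24 with library size scaling, 5 with the stricter cutoff (FDR under 0.05 with a log2 change of 1 or more either way), and 11 to 19 when 1 library was left out. Over all tested genes the counts called higher were, in the same order, 2490, 2112, 2989, 326 and 1008 to 1610. The count of members called lower was 0 to 1 when 1 library was left out. The 1 was Orc5, without siNC replicate 2. Replicate numbers were not treated as pairs, since over all tested genes the deviations of same-numbered libraries correlated at -0.053, -0.152 and -0.340. Among the members, replicate 1 was the highest library after TMM scaling for 35 of 43 in siNC and 40 of 43 in siQk. The correlations over all tested genes therefore do not settle the pairing for the members. With the replicate block, 21 members were called higher, 14 of them shared with the fit without it: the Pola2 call was lost, and Gmnn (0.52), Mcm2, Mcm3, Lig1, Pola1, Pold1 and Pole2 were gained, while calls over all genes went from 3879 to 2796. Scaling by library size alone turned the call split over all genes from 1730 higher and 2149 lower to 2989 higher and 1365 lower. It also turned the sign of Orc5 (0.0134), Pcna (0.0941) and Rfc1 (0.0765). Leaving out 1 library turned the sign of members that were not called, with log2 fold changes from -0.0834 to 0.17 for Mcm4, -0.0968 to 0.30 for Mcm8, -0.0493 to 0.41 for Gins2, -0.0012 to 0.18 for Gins4, -0.0195 to 0.13 for Pold2, -0.19 to 0.0824 for Pcna and -0.0015 to 0.18 for Rpa1. Of 645 member values under alternatives, 14 lost a call, 53 gained one and 11 changed sign. The cause of these shifts was not tested. The Qk call was kept under the 15 alternatives other than the stricter cutoff. The groups did not overlap for the Cdt1 to Gmnn ratio or the ring sum, so leaving out a library could not turn their direction. The ring sum difference was 32.1 after TMM scaling and 30.5 to 48.7 RPKM when 1 library was left out.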
